A study of Mus musculus with 18 samples.

Results

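Bone marrow-derived macrophages were compared with and without bacterial lipopolysaccharide (LPS), across every gene with enough RNA-seq counts to test. LPS is the cell wall glycolipid of Gram-negative bacteria. The members were the 6 libraries of one deposited count table, out of 18 libraries in the series: 3 of cells given LPS and no lipoprotein, and 3 of cells given nothing. All the cells came from the marrow of C57BL/6J mice. They were grown for 7 days with 20% L929-conditioned medium, a source of macrophage colony-stimulating factor, and 10% fetal bovine serum. They were then kept in medium with 4% L929-conditioned medium and no serum named, so the untreated cells also received that growth factor. On day 8 other groups of the series received reconstituted lipoprotein, and LPS was added later, in fresh medium. The sources used here give neither the dose of LPS nor its time. The labels do not say whether the 3 libraries of a group came from separate mice or cultures, so p-values measure the spread between these libraries, which may be technical.

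LPS is handed to CD14 and then to the receptor TLR4 with its partner MD-2 on the macrophage surface. TLR4 signals through the adaptor MyD88 to NF-kB and MAP kinases, which drive cytokine genes, and through the adaptor TRIF to IRF3 and type I interferon. Secreted interferon then acts back on the same cells through JAK and STAT proteins. In macrophages this programme is known for cytokine and chemokine release, nitric oxide and prostaglandin production, altered metabolism and arrest of the cell cycle.

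The table lists 24059 gene symbols, and the libraries held 11450243 to 16835472 counts. Of 13 macrophage markers tested, 6 were called higher and 1 lower, but 2 and 0 under every scaling of the libraries, and their median log2 change of 0.08 was -0.64 with libraries scaled by their totals, while their summed level over all 15 listed genes was 34089 to 40217 CPM with LPS (read counts normalised to TMM library size), against 30216 to 35470 CPM untreated. Of the unscaled counts, those 15 genes held 2.72 to 3.12% with LPS and 3.86 to 4.56% untreated, the opposite order. Itgam and Ctss, both on that list, share nearly all their exon bases with other transcript rows, whose shared reads were not counted, and were at 0. The sum of the 12 lymphocyte markers was 1.91 to 2.52 CPM with LPS and 2.58 to 3.12 CPM untreated. Neutrophil markers summed to 83.7 to 91.4 CPM with LPS and 85.9 to 104.6 CPM untreated, nearly all of it Mmp8 (80.1 ± 1.99 CPM with LPS and 90.1 ± 10.4 CPM untreated), while the low S100a8 (4.15 ± 0.822 CPM with LPS and 1.51 ± 0.0612 CPM untreated) and Ngp (2.05 ± 0.468 CPM with LPS and 0.760 ± 0.0277 CPM untreated) rose (log2 changes of 1.46 ± 0.21 and 1.42 ± 0.28). Dendritic cell markers summed to 1138 to 1229 CPM with LPS and 505 to 649.8 CPM untreated, mostly Itgax (657 ± 81.8 CPM with LPS and 442 ± 77.6 CPM untreated, a log2 change of 0.57 ± 0.13, or -0.14 with libraries scaled by their totals) and Bst2 (503 ± 76.0 CPM with LPS and 143 ± 3.09 CPM untreated), which macrophages and interferon-treated cells also express. All 4 tested dendritic cell markers were called higher, 2 of them under every scaling. The others were low: Batf3 had 16.6 ± 4.07 CPM with LPS and 3.74 ± 0.476 CPM untreated (log2 change of 2.14 ± 0.19). Xcr1 had 1.58 ± 0.218 CPM with LPS and 0.616 ± 0.241 CPM untreated (1.30 ± 0.32). Markers of mast cells, red cell precursors and platelets summed to 62.0 to 98.9 CPM with LPS and 14.3 to 30.4 CPM untreated, mostly the platelet chemokine Pf4 (78.4 ± 18.2 CPM with LPS and 20.3 ± 7.81 CPM untreated), and those of fibroblasts, endothelium and osteoclasts to 199.8 to 236 CPM with LPS and 196 to 207 CPM untreated. Of the 3 tested there, Kdr rose (log2 change of 2.35 ± 0.13), and Ctsk (-0.51 ± 0.11) and Vwf (-0.43 ± 0.11) fell. The part of these cells in the results was not tested. In such bulk samples fewer cells of a type and less RNA per cell cannot be told apart.

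Of 9576 genes tested, 3381 were called higher with LPS (35.3%) and 3607 lower (37.7%), by edgeR's quasi-likelihood test at a Benjamini-Hochberg adjusted p under 0.05. These shares are the background for every gene group below. At least 4-fold changes were called in 757 genes that rose and 620 that fell, and at least 100-fold changes in 83 and 6. The genes that rose by at least 10-fold took 20.4 to 21.8% of the counts of a library with LPS and 1.05 to 1.09% of those of an untreated library. The listed cytokines, chemokines and interferon-induced genes held 1.54 to 1.63%, 3.74 to 4.26% and 4.58 to 5.28% of the counts with LPS. In untreated libraries the same lists held 0.00933 to 0.0120%, 0.426 to 0.513% and 0.325 to 0.375%.

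The split between rises and falls depended on the scaling. TMM scaling, used throughout, put the median of all tested genes at -0.05 on the log2 scale, and scaling by library totals alone put it at -0.77. With totals alone 18.8% of the calls were rises (1532 genes, with 6636 falls), against 48.4% under TMM. In all, 1532 genes were called higher and 3450 lower under each of 4 scalings (TMM, median of ratios, upper quartile, totals). Below, "under every scaling" means that count. A value after ± is a standard error for a log2 fold change (LPS over untreated) and an SD for CPM, with n = 3 libraries a group. A gene is said to rise or fall if it was called, and is tested if its counts passed a minimum in the libraries of either group. Genes that passed only through the group where they are high had to differ, so the counts over a list describe it.

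**Figure D1:**
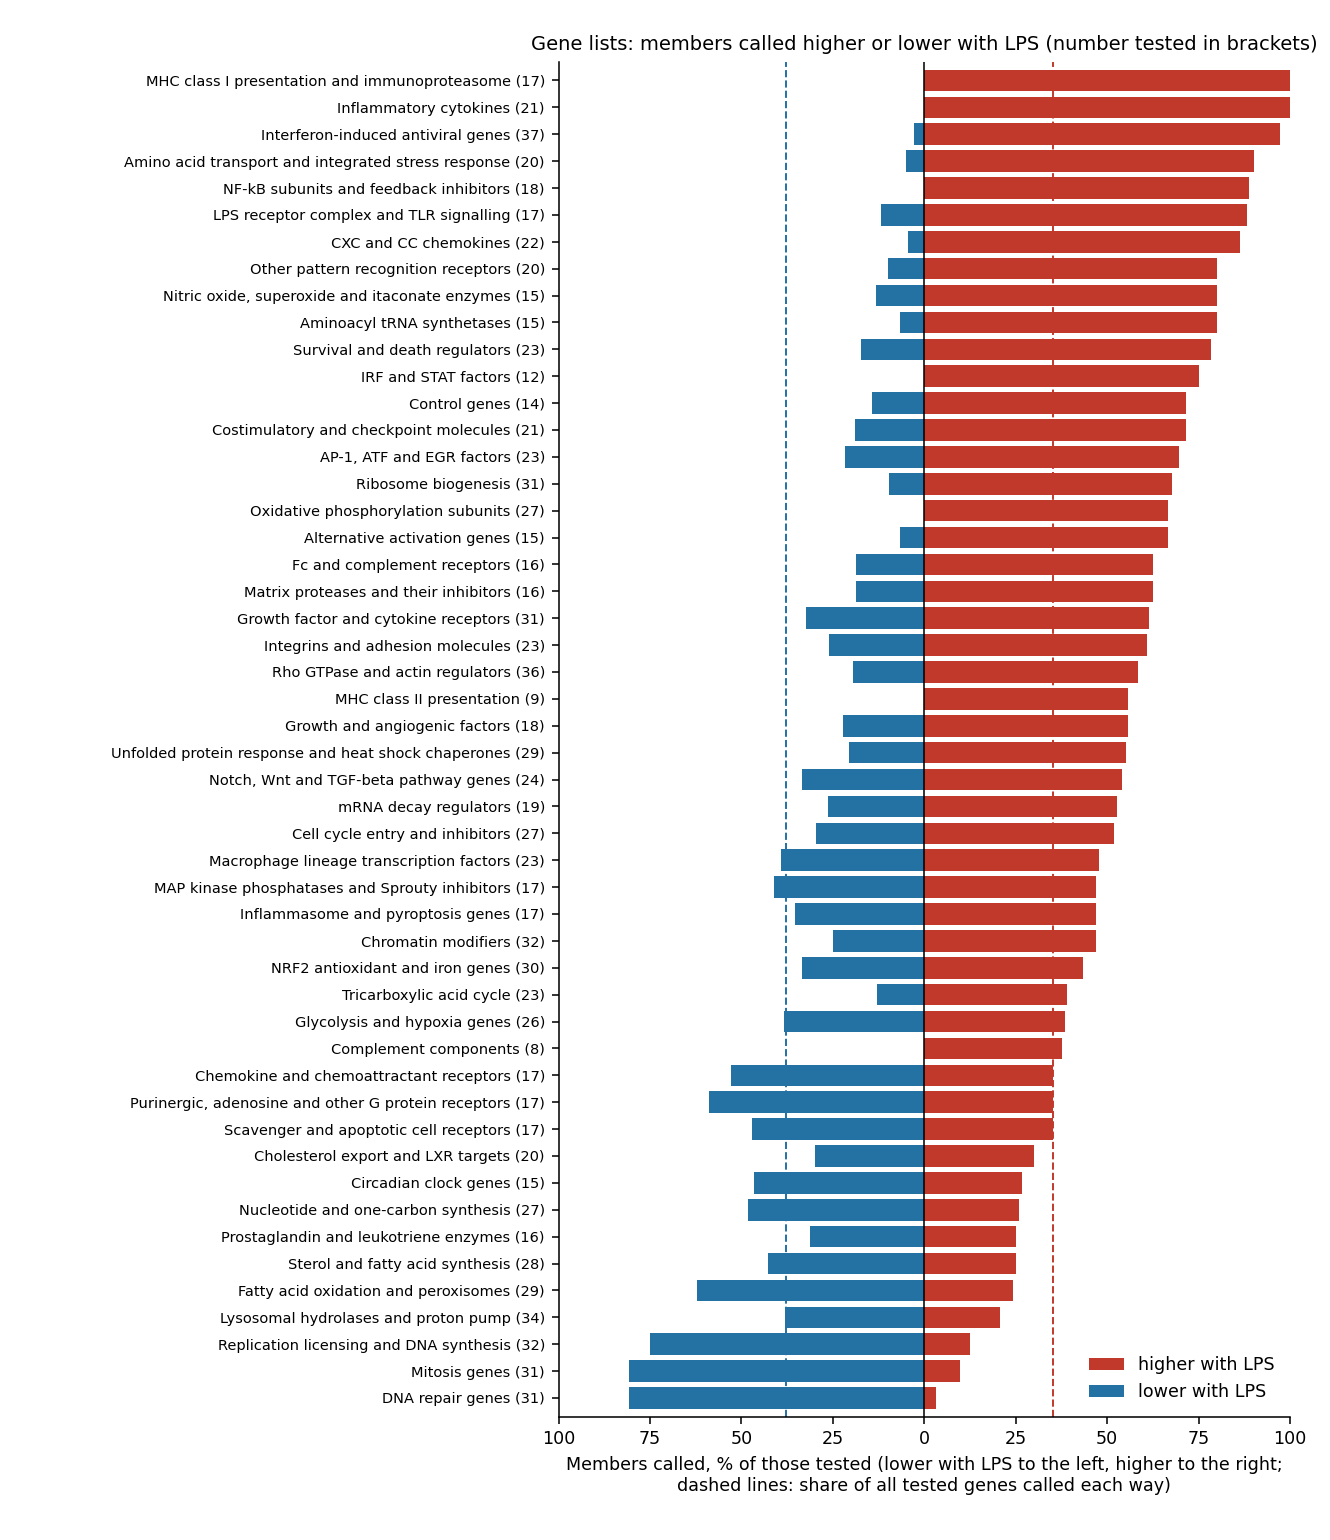
Members of each gene list called higher (right, red) or lower (left, blue) with LPS as a percentage of those tested under TMM scaling, with the number tested in brackets and dashed lines at the shares of all tested genes (35.3% higher, 37.7% lower). Cytokine, MHC class I and interferon lists lie at the top and replication, mitosis and DNA repair lists at the bottom, while lists such as oxidative phosphorylation and control genes have medians that change sign when libraries are scaled by totals.

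Per kilobase of a gene's own exon sequence, the highest level in untreated cells was that of Lyz2, the macrophage lysozyme, followed by Ftl1, the ferritin light chain, and Apoe, a lipid carrier. Lyz2 was at 20869 CPM per kilobase with LPS and 19718 untreated. Ftl1 was at 5667 CPM per kilobase with LPS and 8124 untreated. Apoe was at 7746 CPM per kilobase with LPS and 7927 untreated. Under TMM scaling Lyz2 and Apoe were not called (log2 changes of -0.64 and -0.75 with scaling by totals), and Ftl1 fell (-0.52 ± 0.10). The others of the 12 highest resting levels were B2m, Anxa1 and the cytoskeletal and translation genes Tmsb4x, Eef1a1 and Actb. Ctsd, Gpnmb, Ctsb and Lpl, of the lysosome and lipid handling, were also among the 12 highest resting levels, at 5796, 4622, 3959 and 2238 CPM per kilobase in untreated cells. With LPS 6 of the 12 highest levels belonged to secreted proteins and enzymes of inflammation: Cxcl2, Ccl3, Il1b, Ccl4, Cxcl10 and Irg1. Cxcl2, a neutrophil attractant, was at position 2 of 8246 genes ranked with LPS and at position 1296 untreated. Cxcl2 was at 12901 CPM per kilobase with LPS and 46.6 untreated. Il1b was at 7941 CPM per kilobase with LPS and 7.43 untreated. Il1b moved to position 5 with LPS, against 4989 untreated. Irg1, which makes the antibacterial metabolite itaconate, was at 5852 CPM per kilobase with LPS and 56.0 untreated. The plot of levels per kilobase shows Cxcl2, Ccl3 and Il1b far above the line of equal levels and the resting genes on or near it.

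**Figure D2:**
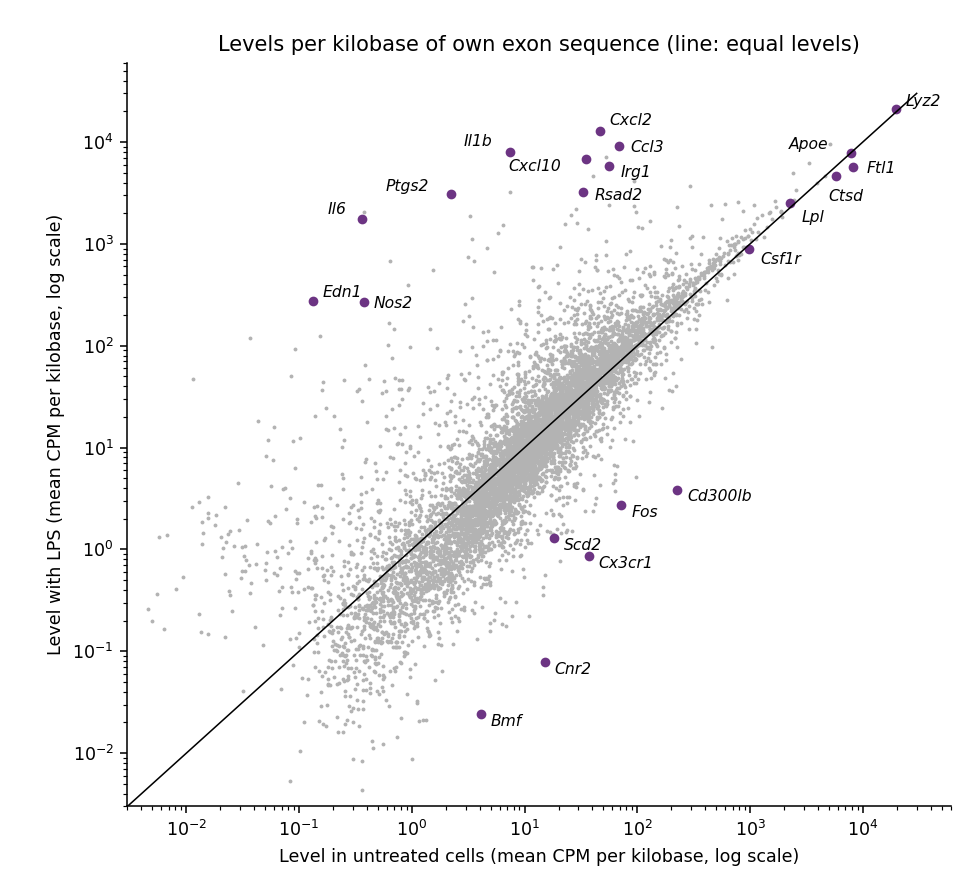
Mean level per kilobase of own exon sequence with LPS (vertical, log scale) against untreated cells (horizontal, log scale), 1 point per gene, with the line of equal levels and named genes in purple. Lyz2 sits on the line at 20869 with LPS and 19718 untreated, Cxcl2 at 12901 with LPS and 46.6 untreated, and Cd300lb below the line at 3.85 with LPS and 227 untreated.

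Genes that sense LPS were present at rest and mostly rose. Cd14, the co-receptor that hands over LPS, had 3575, 4054 and 3818 CPM with LPS and 1162, 986 and 1339 CPM in untreated libraries. All 3 LPS libraries lay above the untreated ones (log2 fold change 1.71 ± 0.12, edgeR adjusted p = 1.20e-07). Tlr4 itself had 215, 168 and 199.8 CPM with LPS, against 106, 110.3 and 105 CPM untreated. It rose by 0.85 ± 0.09, and that change was 0.14 when libraries were scaled by totals. Of 17 genes tested of 25 listed for the receptor complex and its signalling, 15 were called higher and 2 lower, 8 and 2 of them under every scaling. The adaptor Myd88 rose by 2.16 ± 0.09, the kinase partner Tab2 by 2.13 ± 0.08 and the NF-kB subunit Rela by 1.65 ± 0.08. Ticam1, which encodes TRIF, changed by 0.29 ± 0.08, or -0.42 by totals. The pair that fell were Tab1 (-2.02 ± 0.11), a partner of the kinase TAK1, and Irak4 (-0.38 ± 0.08), a kinase bound to MyD88. Ly96, which encodes MD-2, has 9% of its exon bases to itself and too few counts to test.

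Receptors for other microbial signals mostly rose too. Of 20 tested of 28 listed, 16 were higher and 2 lower, 14 and 2 under every scaling, with a median of 2.29. Clec4e, or Mincle, a sensor of mycobacterial glycolipid, had 5889, 5929 and 6359 CPM with LPS and 122, 119.6 and 183 CPM in untreated libraries and rose by 5.42 ± 0.18. The cytosolic sensors Zbp1 (4.88 ± 0.12), Nod2 (4.62 ± 0.10), Ddx58 or RIG-I (3.81 ± 0.12) and Dhx58 (3.53 ± 0.10) rose, and so did Tlr3 (2.92 ± 0.12) and Tlr2 (2.23 ± 0.09). Both that fell are endosomal receptors of nucleic acid. Tlr13, a sensor of bacterial ribosomal RNA, had 188 ± 8.75 CPM with LPS and 479.5 ± 10.2 CPM untreated, and Tlr9, a sensor of bacterial DNA, had 14.2 ± 2.71 CPM with LPS and 47.0 ± 8.71 CPM untreated. Clec7a, the fungal glucan receptor Dectin-1, was not called (-0.03 ± 0.08).

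Most genes listed as NF-kB subunits and feedback inhibitors, of NF-kB or of cytokine signalling, rose. Of 18 tested of 24 listed, 16 were higher and 0 lower, with a median of 2.96. Nfkbia, the inhibitor that holds NF-kB in the cytoplasm and is itself a target of it, had 2049, 2414 and 2379.9 CPM with LPS, against 162, 151 and 159 CPM untreated. Each LPS library lay far above each untreated one (3.86 ± 0.10, adjusted p = 5.54e-11). Nfkb1 rose by 2.93 ± 0.08, Rel by 3.35 ± 0.17 and Nfkbie by 2.71 ± 0.08. Cish, a suppressor of cytokine signalling, was among the 12 largest rises: it had 269, 280.0 and 261 CPM with LPS and 0.371, 0.559 and 0.0680 CPM in untreated libraries. Its LPS libraries were close to each other and its untreated libraries near 0 (9.51 ± 0.20). Tnfaip3, the ubiquitin-editing brake A20, rose by 5.25 ± 0.17 on the 9.4% of its exon bases not shared with another row. Tnip2 and Otulin were not called.

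Phosphatases and Sprouty proteins that limit MAP kinases did not move as one. Of 17 tested of 18 listed, 8 were higher and 7 lower, beside 35.3% and 37.7% of all tested genes. Dusp2, a nuclear MAP kinase phosphatase, had 266, 337 and 357 CPM with LPS, against 4.73, 4.71 and 6.05 CPM untreated, while Dusp6, the cytoplasmic phosphatase of ERK, had 11.531, 13.029 and 12.998 CPM with LPS and 75.883, 71.163 and 95.596 CPM in untreated libraries. Both comparisons left the groups apart, in opposite directions: Dusp2 rose by 5.97 ± 0.15 and Dusp6 fell by 2.69 ± 0.13 on the log2 scale. Spry1 rose by 6.86 ± 0.25, and Dusp7 (-1.46 ± 0.11) and Dusp3 (-1.30 ± 0.09) fell. Dusp1, an early LPS response gene, was not called (0.21 ± 0.10).

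Immediate early transcription factors also split. In the AP-1, ATF and EGR list 16 of 23 tested were higher and 5 lower. Junb (2.55 ± 0.09), Maff (4.604 ± 0.11), Batf (3.76 ± 0.09), Batf2 (4.99 ± 0.11) and Ier3 (4.69 ± 0.20) rose, as did Nr4a3, an orphan nuclear receptor (7.01 ± 0.29). Fos, the partner of JUN in classical AP-1, had 4.04, 5.24 and 7.89 CPM with LPS, against 143, 139.8 and 171 CPM untreated. No LPS library came near an untreated one, and Fos fell by 4.73 ± 0.18 on the log2 scale (adjusted p = 8.70e-10). Jun fell as well (-0.92 ± 0.08).

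Cytokine genes were among the largest changes of the comparison. Each of the 21 tested, of 25 listed, was called higher, under every scaling, with a median of 7.48. Il1a, an interleukin 1 that dying cells also release, had 3831, 3465 and 3540.5 CPM with LPS and 0.0927, 0.466 and 1.43 CPM in untreated libraries. Among genes above a mean log2 CPM of 3 it had the largest rise (12.59 ± 0.34, adjusted p = 7.87e-11). The interleukin 27 subunit Il27 had 786 ± 87.0 CPM with LPS and 2.39 ± 0.306 CPM untreated, its partner Ebi3 137 ± 18.8 CPM with LPS and 34.4 ± 1.02 CPM untreated, and the TNF family member Tnfsf15 847 ± 131 CPM with LPS and 4.02 ± 0.124 CPM untreated. Clcf1 (6.66 ± 0.19), Tnfsf9 (5.70 ± 0.13), Tnfsf10 or TRAIL (5.10 ± 0.19), Il18 (3.94 ± 0.15) and Osm (3.22 ± 0.16) rose by less than Il1a.

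The order of cytokine levels differed from the order of fold changes. Il1b (7941), Il1a (2062), Il6 (1740.0) and Il12b (679.8) had high levels with LPS, in CPM per kilobase. Il10, the main anti-inflammatory cytokine, had 14.1, 9.93 and 18.9 CPM with LPS, against 1.11, 0.699 and 1.09 CPM untreated. Its LPS libraries lay above the untreated ones (3.89 ± 0.28), at a level of 10.9 CPM per kilobase with LPS and 0.740 untreated. Il12a was counted on 12% of its exon bases, Csf1 on 5.6%, Tnf on 2.9% and Il1rn, the interleukin 1 receptor antagonist, on 13.4%, so their levels are not compared. Il1rn rose by 3.32 ± 0.20. Ptx3, a secreted pattern recognition protein, also ranked among the 12 largest rises and had 159, 208 and 168 CPM with LPS and 0.185, 0.140 and 0.204 CPM in untreated libraries, with no overlap (9.94 ± 0.20).

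Chemokines that draw neutrophils and monocytes rose. Of 22 tested of 24 listed, 19 were higher and 1 lower. Cxcl3 had 1953, 2075 and 1713 CPM with LPS, against 2.59, 2.38 and 4.96 CPM untreated, and Ccl22, which draws regulatory T cells, had 739, 699.8 and 690.5 CPM with LPS and 1.71, 2.33 and 0.952 CPM in untreated libraries. The groups did not overlap for either (9.23 ± 0.23 and 8.67 ± 0.18). Ccl3 (7.04 ± 0.17), Ccl4 (7.05 ± 0.25), Ccl2 (6.63 ± 0.21), Ccl7 (6.69 ± 0.29) and Cxcl9 (7.34 ± 0.21) rose. Of the listed chemokines, Ccl6 and Ccl9 had the highest resting levels per kilobase, at 807 and 593 CPM in untreated cells. Ccl9 rose by 2.06 ± 0.10, but Ccl6 had 1093, 1224 and 1159 CPM with LPS, against 1042, 1053 and 1380.2 CPM untreated and was not called. The LPS and untreated libraries of Ccl6 overlapped. Cxcl14 was the 1 listed chemokine that fell (-0.92 ± 0.13).

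**Figure D3:**
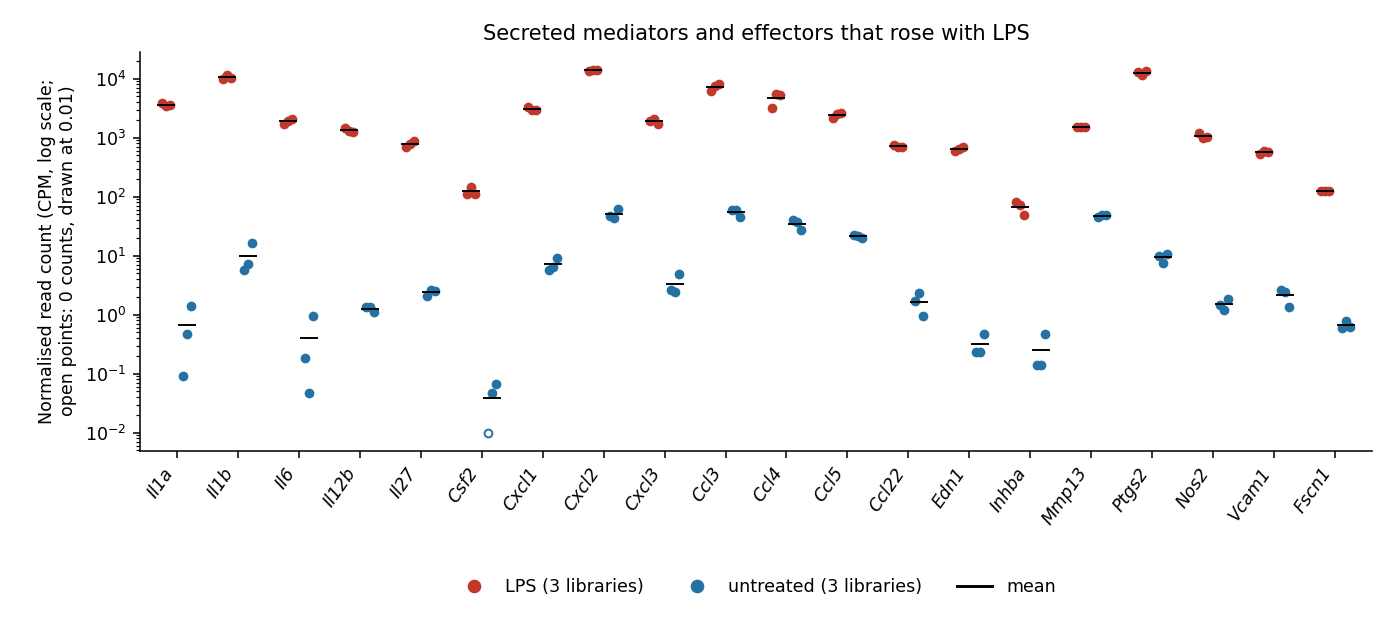
Normalised read counts (CPM, log scale) of 20 genes for secreted mediators and effectors, with the 3 LPS libraries (red, left) and 3 untreated libraries (blue, right) of each gene as points and the mean as a bar. Every LPS library lies above every untreated one for all 20, with Ptgs2 at 11526 to 13280.5 with LPS and 7.46 to 10.7 untreated.

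Growth factors and proteases moved both ways, with more rises than falls. Edn1, the vasoconstrictor peptide endothelin 1, had 602, 635 and 703 CPM with LPS and 0.232, 0.233 and 0.476 CPM in untreated libraries. Its untreated libraries were near 0 and its LPS libraries lay together, and it had the largest rise among the tested growth and angiogenic factors (11.06 ± 0.17, adjusted p = 3.52e-12). Of 18 tested there, 10 were higher and 4 lower, and Inhba, an activin subunit (8.18 ± 0.32), Thbs1 (4.03 ± 0.67), Hbegf (3.38 ± 0.19) and Bmp2 (2.93 ± 0.14) rose. Those that fell were Pdgfb (-1.86 ± 0.14), Gas6 (-1.20 ± 0.08), Pdgfa (-0.96 ± 0.09) and Gdf3 (-0.51 ± 0.07). Gas6 is a bridge between dying cells and MerTK. The matrix metalloproteases Mmp13 (5.00 ± 0.09) and Mmp14 (4.96 ± 0.14) rose. Of 16 tested proteases and inhibitors 10 were higher and 3 lower (7 and 3 under every scaling). The macrophage elastase Mmp12 had 7989.9, 7769 and 7228 CPM with LPS, against 6708, 6972 and 6838 CPM untreated. Its LPS libraries lay slightly above the untreated ones (0.16 ± 0.08), but it was not called. Timp2, an inhibitor of these proteases, fell (-0.84 ± 0.08).

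Enzymes of the prostaglandin E2 branch rose. Ptgs2, the inducible cyclooxygenase, had 13159.7, 11526 and 13280.5 CPM with LPS and 9.73, 7.46 and 10.7 CPM in untreated libraries, and Ptges, which turns its product into prostaglandin E2, had 103, 90.7 and 95.3 CPM with LPS, against 4.59, 5.87 and 7.75 CPM untreated. Neither pair of groups overlapped (10.42 ± 0.18 and 4.01 ± 0.15). Pla2g4a, which frees the arachidonate substrate, rose by 1.95 ± 0.10. Hpgds, which makes prostaglandin D2, fell (-1.61 ± 0.08), as did Alox5ap (-0.48 ± 0.10) and Lta4h (-0.67 ± 0.07) of leukotriene synthesis, Ptgs1 (-0.56 ± 0.12), the constitutive cyclooxygenase, and Hpgd (-1.001 ± 0.19), which degrades prostaglandins. In all 4 of 16 tested were higher and 5 lower.

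Nos2, the inducible nitric oxide synthase, had 1187, 974 and 1027 CPM with LPS and 1.48, 1.21 and 1.84 CPM in untreated libraries. Gch1, which makes its cofactor tetrahydrobiopterin, rose with it (2.84 ± 0.09), and so did Sod2, the mitochondrial superoxide dismutase (3.23 ± 0.09), Lcn2, an iron-sequestering protein (5.93 ± 0.27), and Cybb, the NADPH oxidase subunit (1.63 ± 0.10). The phagosomal metal pump Slc11a1 fell (-0.41 ± 0.09). Of 15 tested in that list 12 were higher. Arg1, the arginase of alternative activation, had too few counts to test. Arg2, the mitochondrial arginase, rose by 3.88 ± 0.28.

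Some genes had almost no counts in one group. In all 55 called genes had 3 or fewer counts summed over the untreated libraries, and 47 had 3 or fewer over the LPS libraries. Adm, the vasodilator peptide adrenomedullin, had 193, 232 and 175 counts with LPS and 0, 0 and 0 untreated, at least 321-fold higher with LPS (against a floor of 3 counts over the untreated group). Sele, or E-selectin, usually an endothelial gene, had 150, 151 and 233 counts with LPS and 0, 0 and 0 untreated, at least 286-fold higher. Csf2 (1327, 1819 and 1302 counts with LPS and 0, 1 and 1 untreated) and Il23a (887, 780 and 617 counts with LPS and 0, 1 and 0 untreated) had ratios of 3568 (95% interval from counting error 987 to 29470.0), and of 3664 (95% interval from counting error 657 to 144800.0). The chemokine Ccl17 had 92, 154 and 106 counts with LPS and 0, 0 and 0 untreated and the receptor Slamf1 87, 85 and 100 counts with LPS and 0, 0 and 0 untreated, at least 188 and 146-fold higher. Dll1, a Notch ligand, had 125, 114 and 165 counts with LPS and 1, 1 and 1 untreated, a ratio of 216 (95% interval from counting error 73.4 to 1052). These ratios are scaled to library size and their intervals cover counting error only. Ifnb1, which encodes interferon beta, had 96, 172 and 174 counts with LPS and 3, 0 and 0 untreated, a ratio of 236 (95% interval from counting error 80.4 to 1151). Il1bos, transcribed from the strand opposite Il1b, had 334, 412 and 243 counts with LPS and 0, 0 and 0 untreated, and its exons share no base with those of Il1b. Strand was not used in counting, so reads of either strand over these exons were counted to it.

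MicroRNA host transcripts were visible through their hairpins. The library method selected polyadenylated RNA, so counts on a hairpin come from the primary transcript and not from the mature microRNA. Mir155, which acts on inflammatory signalling in macrophages, had 169, 165 and 171 counts with LPS and 0, 3 and 0 untreated, a ratio of 270.1 (95% interval from counting error 91.9 to 1314). Mir221 had 317, 319 and 315 counts with LPS and 154, 132 and 101 untreated and Mir222 124, 89 and 63 counts with LPS and 35, 39 and 33 untreated, and they rose by 1.98 ± 0.10 and 2.03 ± 0.25. All 3 hairpins were higher in each LPS library. For each hairpin 1 mature sequence from RefSeq (GRCm38.p6) is shown because seeds select targets, with the seed (bases 2 to 8) in capitals. The other mature products of Mir155 and Mir221, miR-155-3p and miR-221-5p, are not shown.
mmu-miR-155-5p: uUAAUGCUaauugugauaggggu
mmu-miR-221-3p: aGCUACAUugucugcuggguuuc
mmu-miR-222-3p: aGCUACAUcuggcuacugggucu
The last pair share 1 seed, and that of miR-155-5p differs. Their hairpins lie at chr16:84714140-84714204 on the plus strand for Mir155, and at chrX:19146294-19146388 and chrX:19146893-19146971 on the minus strand for Mir221 and Mir222. Of 20 tested hairpin rows whose coordinates equal those of RefSeq, 8 were higher and 7 lower. Mir27a (-1.98 ± 0.32) and its neighbour Mir24-2 (-2.71 ± 0.62, on 22.4% of its bases) fell. Mir27a had 7, 6 and 4 counts with LPS and 44, 44 and 22 untreated and Mir24-2 0, 2 and 1 counts with LPS and 13, 12 and 9 untreated.

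Genes of interferon signalling and response rose. Stat2, which carries the type I interferon signal, had 1119, 991 and 1112 CPM with LPS, against 110.3, 108 and 96.1 CPM untreated. It rose by 3.36 ± 0.09, and Irf8 (1.38 ± 0.10), Jak1 (1.43 ± 0.08) and Irf2 (1.21 ± 0.10) rose with it, 9 of 12 tested IRF and STAT pathway genes in all. Irf1 rose by 4.23 ± 0.24 on 36.4% of its exon bases. Irf7 was not tested, as other transcript rows cover nearly all of its exon bases. Of 37 tested interferon-induced antiviral genes, of 42 listed, 36 were higher and 1 lower, with a median of 3.89. Ifit1, which binds foreign RNA caps, had 4219, 5289 and 5838 CPM with LPS and 74.5, 65.0 and 66.2 CPM in untreated libraries, and Isg15, a ubiquitin-like protein, had 917, 1472 and 1260.5 CPM with LPS, against 24.9, 21.1 and 20.3 CPM untreated. Each LPS library of both lay well above each untreated one (6.22 ± 0.15 and 5.78 ± 0.18). Cmpk2 (6.26 ± 0.17), Oasl1 (6.42 ± 0.17), Usp18 (5.23 ± 0.17) and Ifi205 (8.48 ± 0.13) rose. Gbp2, Gbp3, Oas1a, Oas1g and Ifi204 have close paralogs, so their counts may be shared.

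Interferon-induced promoters are bound by factors that read a repeated GAAA, so the 300 base windows around RefSeq start sites (250 bases before to 50 after, GRCm38.p6) were searched on both strands. An ISRE-type motif, here GAAA, any 2 bases and GAAA again, was in 54.1% of the 37 windows of the interferon list, 9.99% of 671 windows of genes that rose at least 4-fold, 1.29% of 543 windows of genes that fell at least 4-fold, and 3.35% of 8800 windows of all tested genes. A kB-type motif, either GGGANTTCC or GGGN followed by CTTTCC, was in 4.32%, 1.66% and 3.09% of the windows of the risers, the fallers and all tested genes. The AP-1 motif TGANTCA was in 10.6%, 5.89% and 5.11%, the cAMP response motif TGACGTCA in 2.38%, 1.84% and 3.23%, and the E box CACGTG in 6.11%, 10.7% and 10.3%. Windows existed for 31 of the 37 interferon genes and for 7239 of the tested genes. A match describes the letters and does not show binding. The 250 bases before the start of Isg15, Ifit1 and Cxcl10 are shown with matches in capitals (the ISRE-type motif on either strand, and for Cxcl10 also the kB-type motifs), because these genes rose and hold it.
Isg15 (chr4:156200819-156201068, minus strand): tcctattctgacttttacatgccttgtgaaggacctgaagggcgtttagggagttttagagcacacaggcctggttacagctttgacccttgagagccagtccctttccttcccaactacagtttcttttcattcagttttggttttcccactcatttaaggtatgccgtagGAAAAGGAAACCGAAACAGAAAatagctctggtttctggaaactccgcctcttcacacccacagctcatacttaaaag
Ifit1 (chr19:34640639-34640888, plus strand): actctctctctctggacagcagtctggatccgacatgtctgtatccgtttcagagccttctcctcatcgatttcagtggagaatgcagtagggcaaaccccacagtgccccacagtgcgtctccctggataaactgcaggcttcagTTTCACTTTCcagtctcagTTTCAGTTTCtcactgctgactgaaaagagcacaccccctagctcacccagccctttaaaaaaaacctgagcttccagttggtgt
Cxcl10 (chr5:92348890-92349139, minus strand): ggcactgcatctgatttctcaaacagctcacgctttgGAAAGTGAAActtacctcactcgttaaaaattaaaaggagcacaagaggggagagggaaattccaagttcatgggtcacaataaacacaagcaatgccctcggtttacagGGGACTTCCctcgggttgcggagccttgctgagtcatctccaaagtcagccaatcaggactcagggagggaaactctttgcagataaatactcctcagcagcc
In Isg15 the 3 matches overlap as a run of GAAA repeats, in Ifit1 2 matches stand apart, and in Cxcl10 an ISRE-type match lies upstream of a kB-type one. Cxcl10, which draws T cells, had 6023, 6762 and 9431 CPM with LPS and 43.8, 36.9 and 34.1 CPM in untreated libraries.

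Genes that load peptides onto MHC class I rose as a block. Each of the 17 tested, of 20 listed, was higher, with a median of 1.74. Nlrc5, the transactivator of class I genes, had 541, 449.7 and 539.9 CPM with LPS, against 38.3, 39.1 and 32.6 CPM untreated (3.79 ± 0.11). Tap2, a peptide transporter (2.58 ± 0.10), and the immunoproteasome subunits Psmb9 (2.54 ± 0.13), Psmb10 (2.16 ± 0.16) and Psmb8 (1.92 ± 0.11) rose. B2m, the common light chain, was high at rest and had 5069, 5354 and 5634 CPM with LPS and 2930.1, 2798 and 2919.6 CPM in untreated libraries. It rose by 0.89 ± 0.08, or 0.18 by totals. Class II genes moved less: 5 of 9 were higher, 2 under every scaling, and the list's median was 0.63 or -0.09 by totals. H2-Ab1 rose by 1.27 ± 0.12, while H2-Aa changed by 0.63 ± 0.11, or -0.09 by totals.

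Costimulatory ligands rose and some inhibitory receptors fell. Of 21 tested, 15 were higher and 4 lower. Tnfsf4, the ligand of OX40 on T cells, had 49.2, 39.6 and 48.3 CPM with LPS, against 0.880, 0.513 and 0.340 CPM untreated, and Cd274, the checkpoint ligand PD-L1, had 2939.8, 2527 and 2928 CPM with LPS and 143, 165 and 161 CPM in untreated libraries. Their groups did not overlap. Icosl (2.97 ± 0.11), Slamf7 (2.30 ± 0.11), Cd86 (1.66 ± 0.25) and Cd80 (1.52 ± 0.13) rose. Cd200r1, an inhibitory receptor, had 32.7, 32.1 and 36.2 CPM with LPS, against 159, 159 and 168 CPM untreated and fell (-2.26 ± 0.08). Havcr2, or TIM-3 (-2.55 ± 0.27), Cd276 (-1.66 ± 0.24) and Tnfsf14 (-1.08 ± 0.40) were the others lower, Tnfsf14 without a call when any of 4 libraries was left out.

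Inflammasome genes were led by Nlrp3, but the NLRP1 branch went the other way. Nlrp3 had 3026, 2707 and 2909 CPM with LPS and 123, 119.6 and 143 CPM in untreated libraries, whereas Nlrp1b had 0.758, 0.556 and 1.21 CPM with LPS, against 12.5, 9.97 and 8.57 CPM untreated. The LPS libraries were above the untreated ones for Nlrp3 (4.49 ± 0.11) and below them for Nlrp1b (-3.63 ± 0.26). Casp4, which binds LPS in the cytosol and is also called caspase 11, rose by 3.04 ± 0.09, and Casp1 (1.72 ± 0.08) and the pore former Gsdmd (1.41 ± 0.08) rose. Another gasdermin, Dfna5, fell (-3.04 ± 0.12), as did Nlrp1a (-1.78 ± 0.15). Of 17 tested, 8 were higher and 6 lower, and the median of 0.23 became -0.49 by totals. Pycard, the adaptor, was not called.

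Regulators of survival and death moved both ways, with more rises than falls. Of 23 tested, 18 were higher and 4 lower (11 and 4 under every scaling). Bcl2a1b, an anti-apoptotic BCL2 relative with near-identical copies that may share reads, rose by 4.39 ± 0.15, and Birc3 (2.35 ± 0.09) and Birc2 (2.14 ± 0.09), which restrain caspases and death receptors, rose. The kinase-like necroptosis effector Mlkl (3.87 ± 0.11) rose too. Bmf, a pro-apoptotic BH3 protein, had 0.168, 0.079 and 0.087 CPM with LPS and 18.994, 19.620 and 17.950 CPM in untreated libraries. It was the second largest fall of the comparison by the rule for named genes (-7.31 ± 0.24, adjusted p = 2.66e-10). Bcl2 (-1.27 ± 0.14), Bbc3 (-0.78 ± 0.09) and Casp9 (-1.98 ± 0.49), the last on 2.8% of its exon bases, also fell.

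Several surface receptors fell far, and the cannabinoid and fractalkine receptors were among them. Cnr2, the cannabinoid receptor of immune cells, had 0.253, 0.477 and 0.173 CPM with LPS, against 61.5, 57.6 and 56.7 CPM untreated. It was nearly absent with LPS (-7.55 ± 0.18, adjusted p = 3.74e-11). Cd300lb, a receptor that pairs with DAP12, had 13.6, 9.77 and 9.88 CPM with LPS and 660.1, 653 and 646 CPM in untreated libraries, and its level per kilobase put it at position 5686 with LPS and 223 in untreated cells. Cx3cr1, the fractalkine receptor of resident macrophages, had 3.96, 1.83 and 3.81 CPM with LPS, against 153, 124 and 139 CPM untreated. Each LPS library was far below each untreated one for both. Among 17 tested chemoattractant receptors 6 were higher and 9 lower (4 and 9 under every scaling). Cxcr4, the receptor that holds cells in bone marrow, had 10.4, 8.74 and 8.49 CPM with LPS and 178, 171 and 183 CPM in untreated libraries. S1pr1 (-3.31 ± 0.12), Gpr183 (-4.81 ± 0.24), Ccr2 (-2.02 ± 0.09), Gpr65 (-2.11 ± 0.12) and S1pr2 (-1.75 ± 0.09) fell. Ccr2 is the monocyte receptor for CCL2, whose gene rose. Higher were Ccrl2, a non-signalling chemerin receptor, with 1891, 2001 and 2049 CPM with LPS, against 42.7, 44.3 and 42.9 CPM untreated (5.52 ± 0.09), and the formyl peptide receptors Fpr2 (3.19 ± 0.12) and Fpr1 (1.94 ± 0.17), which detect bacterial peptides, and Gpr84 (3.55 ± 0.12).

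**Figure D4:**
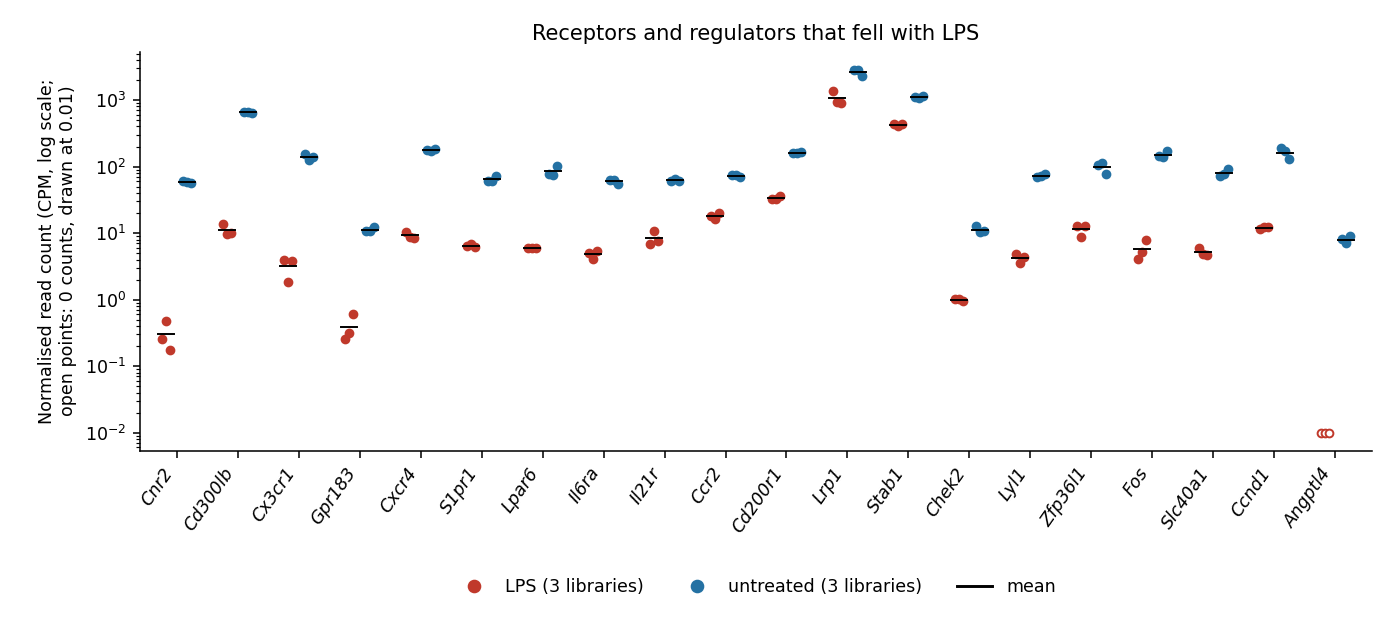
Normalised read counts (CPM, log scale) of 20 genes, mostly receptors and regulators, with the 3 LPS libraries (red, left) and 3 untreated libraries (blue, right) of each gene as points, the mean as a bar and open points for 0 counts. Every LPS library lies below every untreated one for all 20, with Cd300lb at 9.77 to 13.6 with LPS and 646 to 660.1 untreated.

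Other G protein receptors also moved both ways. Of 17 tested, 6 rose and 10 fell. Adora2a, the adenosine receptor that restrains inflammation, had 370.4, 380.0 and 395 CPM with LPS and 3.43, 3.64 and 4.15 CPM in untreated libraries, and Hcar2, a receptor for niacin and ketone bodies, had 129, 109 and 139 CPM with LPS, against 7.55, 8.62 and 5.92 CPM untreated. Both rose (6.68 ± 0.10 and 4.08 ± 0.14). Lpar6 (-3.83 ± 0.15), Gpr157 (-3.11 ± 0.13), the nucleotide receptor P2ry6 (-1.47 ± 0.10) and Entpd1, which degrades extracellular ATP (-1.27 ± 0.09), fell.

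Cytokine receptors were rearranged as well. Of 31 tested, 19 were higher and 10 lower (13 and 9 under every scaling), and the list's median of 0.58 was -0.14 by totals. Csf1r, the receptor for the growth factor in the medium, had 3519.8, 3324 and 3547 CPM with LPS and 3817, 3684 and 3795 CPM in untreated libraries and was not called. Its LPS libraries lay slightly below the untreated ones (-0.12 ± 0.08, or -0.84 by totals). Il6ra, the interleukin 6 receptor, had 4.97, 4.05 and 5.29 CPM with LPS, against 62.3, 63.5 and 54.5 CPM untreated (-3.66 ± 0.12), and its signalling partner Il6st fell by 1.05 ± 0.11 on the log2 scale, while Il6 was among the largest rises. Il21r (-2.88 ± 0.14), Il7r (-1.11 ± 0.08) and Tgfbr1 (-0.75 ± 0.12) fell. Tnfrsf1b, or TNF receptor 2, had 5818 ± 177 CPM with LPS and 1502 ± 6.51 CPM untreated, and Il17ra (2.24 ± 0.08), Il10ra (1.48 ± 0.08), Il4ra (1.52 ± 0.08), Il2rg (1.53 ± 0.07), Ifnar1 (1.15 ± 0.08) and the VEGF receptors Kdr (2.35 ± 0.13) and Flt1 (1.96 ± 0.17) rose.

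Scavenger receptors moved both ways. Of 17 tested, 6 were higher and 8 lower (4 and 7 under every scaling), beside 35.3% and 37.7% of all tested genes. Msr1 had 1215, 1231 and 1352 CPM with LPS and 226, 241 and 273 CPM in untreated libraries and Marco 20.0, 22.7 and 23.8 CPM with LPS, against 1.39, 0.885 and 2.24 CPM untreated. These class A receptors, which bind modified lipoprotein and bacteria, rose (2.36 ± 0.10 and 3.94 ± 0.21), and so did Olr1 (4.07 ± 0.12). Lrp1 had 1343, 949.6 and 911 CPM with LPS and 2822, 2858 and 2307 CPM in untreated libraries, and Stab1, which clears dying cells, had 430.1, 407 and 440.1 CPM with LPS, against 1109, 1058 and 1147 CPM untreated. Each LPS library was below each untreated one for both (-1.32 ± 0.15 and -1.38 ± 0.08). Cd300a (-1.67 ± 0.08) and Cd5l (-0.89 ± 0.13) fell. Cd36 and Trem2, which bind lipids, share nearly all their exon bases with other rows and were not tested. Mrc1, the mannose receptor, was not called (-0.07 ± 0.08, or -0.78 by totals). Mertk, a receptor for dying cells, overlapped between groups and changed by 0.33 ± 0.12, or -0.38 by totals.

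Fc and complement receptors had 10 higher and 3 lower (5 and 3 under every scaling) of 16 tested. Fcgr3 fell (-1.17 ± 0.08) and Fcgr2b, the inhibitory receptor, rose by 3.57 ± 0.20 on 9.1% of its exon bases. Pilra, which may share reads with near copies, had 263 ± 1.24 CPM with LPS and 39.4 ± 5.77 CPM untreated, and C3ar1 fell by 0.69 ± 0.09 on the log2 scale. C3, the central complement protein, had 2218, 1838 and 2398 CPM with LPS and 441, 331 and 326 CPM in untreated libraries and rose by 2.55 ± 0.14. The 3 chains of C1q were high in both groups and were not called: C1qa had 847 ± 173 CPM with LPS and 824 ± 56.4 CPM untreated, C1qb 1857 ± 312 CPM with LPS and 1654 ± 94.9 CPM untreated and C1qc 1186 ± 199 CPM with LPS and 1188 ± 69.7 CPM untreated. Of 8 tested complement genes 3 rose, the others being C1ra (1.93 ± 0.16) and Cd55 (1.31 ± 0.32). Cd55 was not called under totals.

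Adhesion genes rose more often than they fell, at 14 and 6 of 23 tested (10 and 6 under every scaling). Vcam1, a ligand for lymphocyte integrins, had 536, 585 and 567 CPM with LPS, against 2.59, 2.42 and 1.36 CPM untreated, and Icam1 had 10595, 10474 and 10657 CPM with LPS and 255, 254 and 206 CPM in untreated libraries. The groups lay far apart (8.00 ± 0.16 and 5.47 ± 0.12). The integrins Itgav (2.43 ± 0.10), Itga4 (2.83 ± 0.16) and Itga5 (1.74 ± 0.09) rose, and Itgb3 (-2.33 ± 0.22) and Nrp1 (-0.90 ± 0.07) fell. In the actin list the bundler Fscn1 had 123, 123 and 125 CPM with LPS, against 0.602, 0.792 and 0.612 CPM untreated, and Marcksl1 rose by 3.72 ± 0.14. Myo1f (-1.64 ± 0.10) and Rhov (-4.74 ± 0.23) fell. Of 36 tested actin regulators 21 were higher and 7 lower, 10 and 7 under every scaling.

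Transcription factors that set macrophage identity moved both ways. Of 23 tested, 11 were higher and 9 lower, beside 35.3% and 37.7% of all tested genes. Maf, a basic leucine zipper factor, had 325 ± 39.9 CPM with LPS and 207 ± 35.4 CPM untreated, a change of 0.65 ± 0.12, or -0.07 by totals. Tfec, a macrophage member of the MiT family, had 378, 448 and 407 CPM with LPS and 13.3, 14.2 and 13.3 CPM in untreated libraries (4.92 ± 0.10). Spi1, or PU.1 (1.06 ± 0.09), Ets2 (2.11 ± 0.10), Cebpd (2.59 ± 0.14) and Id3 (3.82 ± 0.21) rose, and Lyl1 (-4.09 ± 0.12) and Bhlhe40 (-0.55 ± 0.10) fell. Tfeb (-3.24 ± 0.27), a lysosome regulator, and Pparg (-2.57 ± 0.22) fell on 27.4% and 17.2% of their exon bases. In the list of alternative activation genes 10 of 15 tested rose, and the members that rose most, Ccl17, Cish and Ccl22, are also in the chemokine or feedback lists. Mrc1 and Mgl2 were not called and Egr2 fell (-0.53 ± 0.11).

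Genes of DNA replication fell. Of 32 tested of 45 listed, 24 were lower and 4 higher, with a median of -1.01. Mcm2, a subunit of the replicative helicase, had 5.05, 3.42 and 3.47 CPM with LPS, against 26.3, 22.2 and 18.3 CPM untreated. The groups did not overlap (-2.49 ± 0.18, adjusted p = 2.69e-07). E2f2, a factor that turns on replication genes, fell by 4.30 ± 0.33 on the log2 scale, and the polymerase and primase subunits Pold1 (-1.80 ± 0.12) and Prim1 (-1.88 ± 0.24), the licensing factor Cdt1 (-1.54 ± 0.11) and the nucleotide reductase subunit Rrm2 (-1.80 ± 0.27) fell. Pcna was not called (0.16 ± 0.10). Those that rose were E2f8, an E2F repressor, with 58.1, 49.2 and 42.9 CPM with LPS and 7.92, 5.69 and 5.44 CPM in untreated libraries (2.96 ± 0.16), Ccne1, or cyclin E1 (2.18 ± 0.13), Rfc3 (1.27 ± 0.11) and Pola2 (1.07 ± 0.17, on 32.1% of its exon bases and not called under totals).

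Mitotic genes followed, at 25 lower and 3 higher of 31 tested. Kif23 (-3.24 ± 0.33), Aurkb (-2.45 ± 0.37), Incenp (-1.92 ± 0.09) and Ccna2 (-1.94 ± 0.32) fell. Incenp had 21.6 ± 1.72 CPM with LPS and 81.6 ± 3.77 CPM untreated and Aurkb 0.797 ± 0.386 CPM with LPS and 4.37 ± 1.52 CPM untreated. Mki67, which encodes the proliferation antigen Ki-67, went against them with 583, 429 and 475 CPM with LPS, against 54.6, 38.3 and 22.7 CPM untreated. Each LPS library was above each untreated one (3.67 ± 0.28). Mad2l1, a spindle checkpoint protein, also rose (2.23 ± 0.13), and Bub3 changed by 0.23 ± 0.07, or -0.49 by totals. All of the exon bases of Mki67 are its own in the table. With Mki67 among them, the mitotic genes held 0.0588 to 0.0709% of the unscaled counts with LPS and 0.0522 to 0.0752% untreated, which overlapped. TMM factors were 0.766 to 0.798 with LPS and 1.28 to 1.29 untreated, so TMM scaling raises the LPS values and lowers the untreated ones. That overlap does not carry over to TMM scaling.

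**Figure D5:**
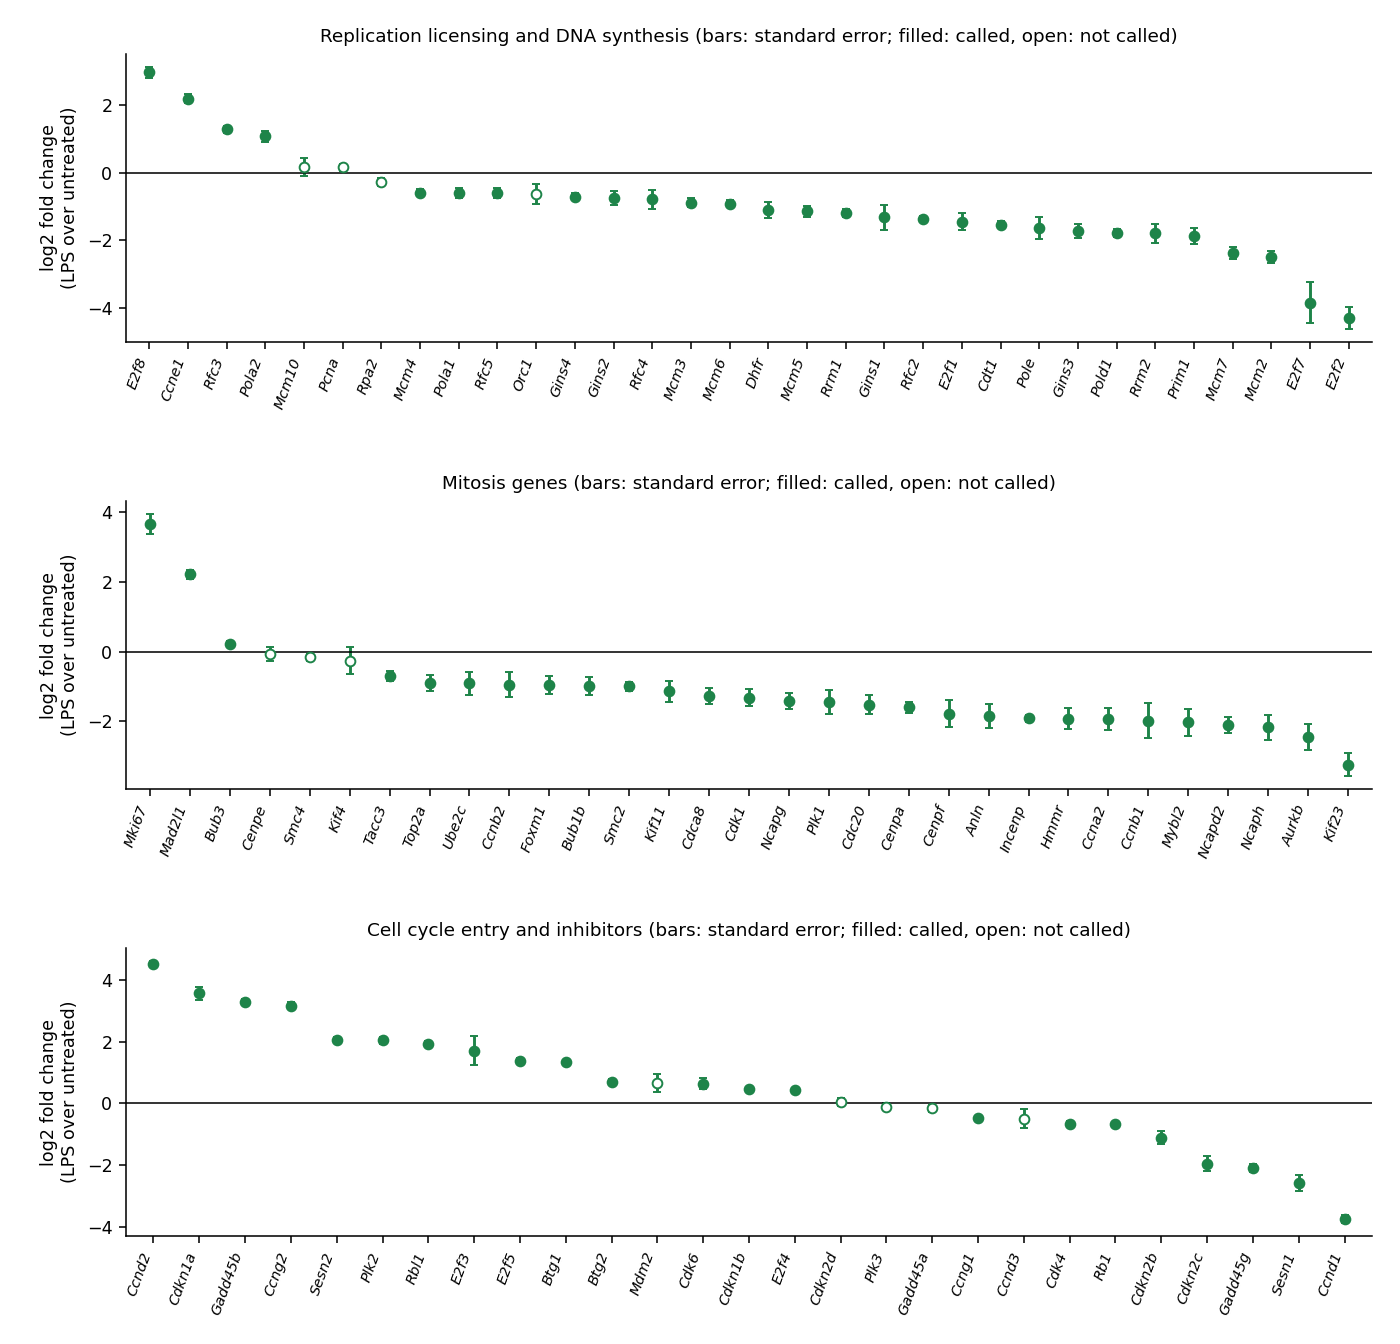
Log2 fold changes (LPS over untreated, vertical, with standard errors) of the tested genes of the replication, mitosis and cell cycle entry lists, in order of size, filled where called and open where not. Most replication and mitosis genes lie below 0 while E2f8 (2.96), Ccne1 (2.18), Mki67 (3.67) and Mad2l1 (2.23) lie above it, and cyclin D2 (4.53) and cyclin D1 (-3.75) stand at the ends of the lowest panel.

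The D cyclins, which carry growth factor signals into the cell cycle, moved in opposite directions. Ccnd1 had 11.4, 12.2 and 12.3 CPM with LPS and 188, 169 and 129 CPM in untreated libraries, and Ccnd2 had 594, 526 and 589 CPM with LPS, against 26.7, 23.1 and 24.2 CPM untreated. The first was lower in every LPS library and the second higher (-3.75 ± 0.14 and 4.53 ± 0.10). Ccng2 (3.18 ± 0.11), Gadd45b (3.29 ± 0.09) and Btg1 (1.34 ± 0.07) of the growth arrest genes rose, and Cdkn1a, or p21, rose by 3.58 ± 0.21 on 10.2% of its exon bases. Cdkn2c (-1.96 ± 0.24), Gadd45g (-2.10 ± 0.14) and Cdk4 (-0.66 ± 0.09) fell. Of 27 tested, 14 were higher and 8 lower (9 and 8 under every scaling), and the median of 0.46 was -0.25 by totals.

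DNA repair genes fell, at 25 of 31 tested (25 under every scaling) with a median of -1.05. Chek2, a checkpoint kinase, had 1.01, 1.03 and 0.953 CPM with LPS and 12.7, 10.3 and 10.6 CPM in untreated libraries. The groups were apart (-3.48 ± 0.19). Msh6 (-1.85 ± 0.13) of mismatch repair, Xpc (-1.90 ± 0.11) of nucleotide excision, Ogg1 (-1.86 ± 0.16) of base excision, Brca1 (-2.49 ± 0.31) and Parp1 (-1.29 ± 0.08) fell. Atm, the double strand break kinase, was the member that rose (0.71 ± 0.11), and its change was -0.0014 by totals.

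Replication genes are classical targets of E2F factors. Either of the E2F-type motifs TTTCCCGC and TTTGGCGC was in 40.7% of the 27 windows of the replication list, on either strand, 3.87% of windows of genes that fell at least 4-fold, 1.94% of those that rose at least 4-fold and 3.09% of all windows. Windows existed for 25 of the 32 tested replication genes. The 250 bases before the start of Mcm7 and E2f7 are shown with matches in capitals, because both genes fell.
Mcm7 (chr5:138171884-138172133, minus strand): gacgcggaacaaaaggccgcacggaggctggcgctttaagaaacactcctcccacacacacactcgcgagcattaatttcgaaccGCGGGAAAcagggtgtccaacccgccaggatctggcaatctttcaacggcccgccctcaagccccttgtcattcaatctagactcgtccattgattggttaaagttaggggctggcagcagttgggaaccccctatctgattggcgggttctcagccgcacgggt
E2f7 (chr10:110745189-110745438, plus strand): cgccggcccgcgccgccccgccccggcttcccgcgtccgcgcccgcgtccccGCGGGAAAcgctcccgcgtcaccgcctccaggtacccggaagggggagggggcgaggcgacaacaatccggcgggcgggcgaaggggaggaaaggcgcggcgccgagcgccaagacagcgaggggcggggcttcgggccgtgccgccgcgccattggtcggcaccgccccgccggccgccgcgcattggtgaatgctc
Mcm7 fell by 2.39 ± 0.17 on the log2 scale and E2f7, an E2F repressor like E2f8, fell by 3.84 ± 0.60 on the log2 scale, whereas E2f8 rose.

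Genes that build ribosomes and charge tRNAs were called higher, with effects that lean on the scaling. In the ribosome biogenesis list 21 of 31 tested were higher and 3 lower, but 6 and 3 under every scaling, and the median of 0.53 was -0.19 by totals. Wdr43 rose by 1.93 ± 0.08 and Rrp9 by 1.17 ± 0.13. Of 15 tested tRNA synthetases, 12 were higher, 9 under every scaling, among them Rars (1.64 ± 0.08), Gars (1.42 ± 0.09) and Tars (1.33 ± 0.07).

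Amino acid uptake and the ATF4 stress programme rose, at 18 of 20 tested with a median of 2.02. Slc7a11, the cystine importer, had 1315, 949 and 884 CPM with LPS, against 45.8, 43.4 and 56.6 CPM untreated. It rose by 4.44 ± 0.17, and the arginine importer Slc7a1 (2.21 ± 0.09), the leucine importer Slc7a5 (2.19 ± 0.09), Asns (2.09 ± 0.09), Nupr1 (3.66 ± 0.13) and Ppp1r15a (3.50 ± 0.11) rose as well. Slc1a5, a glutamine importer, fell (-0.51 ± 0.09). In the serine and one-carbon branch Phgdh (2.54 ± 0.13), Psph (1.09 ± 0.16) and Mthfd2 (2.17 ± 0.09) rose, while purine and pyrimidine enzymes such as Umps (-1.09 ± 0.09), Pfas (-1.03 ± 0.12), Mthfd1 (-0.92 ± 0.10) and Ppat (-0.79 ± 0.10) fell. That list had 7 higher and 13 lower (4 and 12 under every scaling) of 27 tested.

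Glycolysis genes did not rise as a group: 10 of 26 tested were higher and 10 lower, near the background. Genes for glucose entry rose. The glucose importer Slc2a1 had 409, 417 and 398 CPM with LPS and 172, 169 and 180.4 CPM in untreated libraries, and Hk2, or hexokinase 2, had 433, 404 and 422 CPM with LPS, against 127, 123 and 121 CPM untreated. LPS libraries were above untreated ones for both (1.23 ± 0.07 and 1.76 ± 0.07). Hif1a, the hypoxia factor, rose by 1.52 ± 0.08 and Pfkl by 1.14 ± 0.09. Tpi1 (-0.32 ± 0.08), Pdk1 (-1.08 ± 0.11), Pfkfb4 (-1.56 ± 0.08) and Ankrd37 (-3.08 ± 0.19), a hypoxia-induced gene, fell. Ldha, counted on 15.9% of its exon bases, had too few counts to test.

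Rises of mitochondrial genes were small. Of 27 tested respiratory chain subunits 18 were higher, but 1 under every scaling, and the median was 0.38 or -0.34 by totals. That one was Cycs, cytochrome c (1.61 ± 0.11). In the tricarboxylic acid cycle 9 of 23 tested were higher, 1 under every scaling, and 3 lower, 3 under every scaling. Dld (1.48 ± 0.08) rose, and Idh2 (-0.70 ± 0.11) and Suclg2 (-0.62 ± 0.14) fell, with Idh1 (-1.91 ± 0.30) lower on 13.5% of its exon bases. Sdha changed by 0.22 ± 0.08, or -0.49 by totals. Fatty acid oxidation went down, with 18 of 29 tested lower (17 under every scaling) and 7 higher (0 under every scaling). Cpt1a, the gate of mitochondrial import, fell (-0.82 ± 0.08), as did Acadm (-0.89 ± 0.11), Echs1 (-1.42 ± 0.10) and catalase (Cat, -0.87 ± 0.07). Acadl changed by 0.85 ± 0.07, or 0.13 by totals.

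Sterol synthesis genes split. Srebf2, which controls the pathway, rose by 1.09 ± 0.10, and the enzyme Idi1 rose as well (1.31 ± 0.12). The enzymes Lss (-1.08 ± 0.14), Mvk (-0.70 ± 0.15) and Dhcr7 (-2.79 ± 0.15) fell, and Sqle was not called. The fatty acid desaturase Scd2 fell: it had 8.42, 7.63 and 4.94 CPM with LPS and 111, 123 and 63.3 CPM in untreated libraries, with no overlap between groups (-3.82 ± 0.26). In all 7 of 28 tested were higher and 12 lower (5 and 12 under every scaling). Cholesterol export and storage genes had 6 higher and 6 lower (2 and 6 under every scaling) of 20 tested. Ch25h, which makes 25-hydroxycholesterol, had 268, 325 and 385 CPM with LPS, against 24.6, 14.3 and 14.6 CPM untreated and rose by 4.18 ± 0.21. Abcg1 (-0.04 ± 0.11), Apoe (-0.03 ± 0.13, or -0.75 by totals) and Lpl (0.18 ± 0.10, or -0.53 by totals) were not called under TMM. Nceh1 (-1.89 ± 0.07), Soat1 (-1.37 ± 0.07), Plin2 (-1.15 ± 0.10) and Npc1 (-0.85 ± 0.10), of cholesterol ester turnover, droplets and export from lysosomes, fell.

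Iron and redox genes did not move one way. Slc40a1, the iron exporter ferroportin, had 6.06, 4.85 and 4.68 CPM with LPS and 72.5, 77.4 and 91.9 CPM in untreated libraries. The LPS libraries lay far below the untreated ones (-3.95 ± 0.14). Ftl1 (-0.52 ± 0.10), Hmox1 (-0.84 ± 0.12), Gclm (-1.20 ± 0.11) and Gpx1 (-0.90 ± 0.10) fell, while Mt2, a metallothionein (5.45 ± 0.17), Prdx5 (2.41 ± 0.14), Txn1 (1.42 ± 0.13) and Cp, or ceruloplasmin (3.00 ± 0.27), rose. Of 30 tested, 13 were higher and 10 lower (6 and 10 under every scaling). Unfolded protein response genes and heat shock chaperones had 16 of 29 higher but 2 under every scaling, and 6 lower. Herpud1, of the endoplasmic reticulum, rose by 1.74 ± 0.07, and the cytosolic chaperone Hsph1 fell (-1.34 ± 0.09). Lysosomal genes had 7 higher and 13 lower (2 and 12 under every scaling) of 34 tested, with a median of -0.08, or -0.80 by totals. Their share of the unscaled counts was 3.38 to 3.72% with LPS and 5.91 to 6.12% untreated. That share, like the median by totals, includes the shift of all tested genes by totals (-0.77). Ctsb was not called (0.00 ± 0.09), Ctsd (-0.32 ± 0.10, adjusted p = 0.0526 without untreated replicate 2) and the proton pump subunit Atp6v0d2 (-1.003 ± 0.09) fell, and Ctsc (1.06 ± 0.11) rose.

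Clock genes included several falls: 7 lower and 4 higher (7 and 2 under every scaling) of 15 tested. Among all tested genes 37.7% were lower and 35.3% higher. Dbp, an output gene of the clock, had 1.00 ± 0.183 CPM with LPS and 10.5 ± 1.23 CPM untreated (-3.38 ± 0.20), and Nr1d1 (-1.70 ± 0.18) and Per2 (-1.70 ± 0.19) fell. Nfil3, which opposes DBP, had 111, 96.8 and 121 CPM with LPS, against 11.4, 11.7 and 15.5 CPM untreated (3.10 ± 0.13), and Cry1 rose (1.67 ± 0.10).

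Among chromatin genes Kdm6b, the demethylase of histone H3 lysine 27, had 179, 113 and 129.5 CPM with LPS and 8.71, 8.06 and 8.50 CPM in untreated libraries. It rose by 4.06 ± 0.17, with Setdb2 (3.97 ± 0.13), Prdm1 (2.28 ± 0.09) and Tet2 (2.15 ± 0.13), which oxidises methylcytosine. Tet3, its relative, had 65.7, 50.2 and 52.0 CPM with LPS, against 204, 212 and 192 CPM untreated and fell (-1.86 ± 0.10), as did Kdm5b (-1.16 ± 0.13). Hdac9 was not called, and Ezh2, the methylase that opposes KDM6B, was not tested. In all 15 of 32 tested were higher and 8 lower (6 and 7 under every scaling), and the list's median of 0.26 was -0.46 by totals.

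Genes for proteins that destroy cytokine mRNA moved in opposite directions, also within a family. Zfp36, or tristetraprolin, had 786, 792 and 1019 CPM with LPS and 112, 111 and 105 CPM in untreated libraries, whereas its relative Zfp36l2 had 149.6, 124 and 108 CPM with LPS, against 712, 718 and 739.6 CPM untreated. Zfp36 was higher in every LPS library and Zfp36l2 lower (2.98 ± 0.11 and -2.51 ± 0.11), and Zfp36l1 fell too (-3.13 ± 0.17). Zc3h12c rose (3.30 ± 0.11), as did Zc3h12a, or Regnase-1 (2.62 ± 0.07), while Zc3h12d fell (-3.30 ± 0.14). Of 19 tested decay genes 10 were higher and 5 lower, with a median of 0.58, or -0.13 by totals. In the Notch, Wnt and TGF-beta list 13 of 24 tested were higher and 8 lower (8 and 8 under every scaling), and the median changed sign by totals. The receptors Notch2 (2.63 ± 0.12) and Notch1 (2.38 ± 0.14) and the ligand Jag1 (2.34 ± 0.12) rose, and Jag2 (-3.37 ± 0.57) and Notch4 (-2.80 ± 0.48) fell. Of the TGF-beta pathway Smad3 (-2.29 ± 0.13), Ski (-1.70 ± 0.09) and Smad7 (-1.67 ± 0.18) fell.

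The other large falls were of genes with varied functions. Zfp395 had 1.18, 0.715 and 0.953 CPM with LPS and 45.3, 51.4 and 41.1 CPM in untreated libraries (-5.59 ± 0.17), and Snx30, of endosomal sorting, had 4.63, 4.93 and 3.03 CPM with LPS, against 119.9, 114 and 111 CPM untreated (-4.77 ± 0.14). Their LPS libraries were a small fraction of the untreated ones. Fam117a (-5.32 ± 0.16), Engase (-5.27 ± 0.20), which cleaves sugar chains from proteins, Plekhg3 (-5.10 ± 0.16), Ier5l (-5.08 ± 0.20), Ccsap (-5.04 ± 0.20) and Fam78a (-4.77 ± 0.16) also fell among the 12 largest. Some genes that fell had 3 or fewer counts summed over the LPS libraries. Angptl4, an inhibitor of lipoprotein lipase and a PPAR target, had 0, 0 and 0 counts with LPS and 173, 152 and 131 untreated. It was at least 94.7-fold lower with LPS (against a floor of 3 counts over the LPS group). Npas4 had 0, 0 and 1 counts with LPS and 94, 89 and 20 untreated, Frat1 0, 1 and 1 counts with LPS and 69, 86 and 48 untreated and Cbx2, a Polycomb subunit, 0, 2 and 1 counts with LPS and 76, 68 and 34 untreated.

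Most genes often used to normalise other assays were called under TMM scaling, but few of them under every scaling. Of 14 tested control genes 10 were higher and 2 lower, 2 and 2 under every scaling, and the median of 0.31 was -0.40 by totals. Actb had 8338, 8919 and 10776 CPM with LPS and 4613, 4387 and 4489 CPM in untreated libraries. It rose by 1.06 ± 0.11, or 0.34 by totals. Polr2a, the large subunit of RNA polymerase II, had 209, 134 and 154 CPM with LPS, against 307, 315 and 261 CPM untreated and fell (-0.83 ± 0.14), and Hprt was not called (0.06 ± 0.11).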

How the data were processed

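RNA-seq of 6 libraries was used, 3 with LPS and 3 untreated. Per the labels, RNA of high integrity was selected on poly-dT beads. The submitters' processing notes name cutadapt, HISAT2, featureCounts from Subread, DESeq2 and the build mm10, without versions. The deposited values are read counts per transcript row, not normalized by the authors. Reads that overlap more than 1 row were dropped: the 6698 rows whose exon bases all lie in other rows held no count. Among them were 99 rows with bases of their own by strand only, so counting did not use strand. A gene's own exon bases are those that no other row covers. Genes sharing most of their bases are measured in part.

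Rows were summed per gene symbol, filtered (edgeR's filterByExpr, minimum count 10), scaled by TMM and tested with edgeR 4.0.16 (quasi-likelihood, robust, R 4.3.3), with Benjamini-Hochberg adjustment over 9576 genes. CPM values use TMM library sizes. Levels per kilobase divide CPM by own exon length, for genes with at least 200 and 20% own bases. DESeq2 1.42.0 and other scalings, filters and left-out libraries were alternatives. Intervals and floors cover counting error only. No replicate pair agreed within sampling noise. The fit was tested on simulated data. Libraries sharing a replicate number were not treated as paired.

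The gene lists and the comparison were chosen with earlier results of these data known. Genes named are the 12 largest rises and falls (mean log2 CPM of at least 3, no overlap, at least 20% own bases, predicted genes left out), the 12 highest levels, the genes with most counts in 1 group and at most 3 in the other, list members with the smallest p or against their list, a panel of known LPS response genes, and some further list members chosen after their values were seen. Promoters and miRNAs shown were also chosen after values were seen. Values of some genes these rules take are not reported here. Sequences are from RefSeq (GRCm38.p6), matched by symbol, and hairpins by coordinates.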

Additional observations from a re-analysis of the deposited data

How the results depend on the processing

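The number of genes called moved by less than 1.5 times under every alternative but one: a required change of at least 1.5-fold left 4048 called, 1908 higher and 2140 lower. The direction was less stable. Scaling by library totals gave 1532 higher and 6636 lower, and upper-quartile scaling gave 2347 and 4962, so that 32.1% of calls were higher. DESeq2 called 6772 genes and the replicate block 6883 (3334 higher and 3549 lower). Libraries of the same number had correlated deviations of 0.07, -0.08 and 0.01, within the -0.16 to 0.15 of other pairs. With 3 libraries a group this cannot show whether libraries of the same number share an animal, culture or day. Leaving out 1 library gave 6539 to 7136 called, 3178 to 3475 higher and 3356 to 3661 lower. Of the named genes, the calls lost without 1 library were those of Ctsd (adjusted p 0.0526, without untreated 2), Mertk (adjusted p 0.0928 to 0.132, without untreated 1 or LPS 1 or LPS 3), Sdha (adjusted p 0.0628 to 0.0686, without untreated 1 or untreated 3) and Tnfsf14 (adjusted p 0.0578 to 0.13, without untreated 1 or untreated 3 or LPS 2 or LPS 3), and those gained were of Anxa1, C1qa, C1qb, Dusp1, Hdac9, Hprt and Pcna. The replicate block changed none of these calls.

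Scaling by totals turned the sign of 19 list medians, all of them positive under TMM: MAP kinase phosphatases -0.50, MHC class II -0.091, inflammasome -0.49, Fc and complement receptors -0.11, cytokine receptors -0.14, actin regulators -0.36, cell cycle entry -0.25, ribosome biogenesis -0.19, oxidative phosphorylation -0.34, NRF2 and iron -0.58, chaperones -0.44, chromatin -0.46, mRNA decay -0.13, Notch, Wnt and TGF-beta -0.25 and control genes -0.40, and, from TMM medians within the median standard error of their genes, macrophage transcription factors -0.68, complement -0.58, tricarboxylic acid cycle -0.64 and macrophage markers -0.64. Among named genes called under TMM or by totals it turned 22: Anxa1 -0.57, Atm -0.0014, Bub3 -0.49, C1qa -0.68, C1qb -0.55, Ccl6 -0.72, Ctsb -0.71, Dusp1 -0.50, Eef1a1 -0.30, Gpnmb -0.71, H2-Aa -0.091, Hprt -0.66, Itgax -0.14, Lpl -0.53, Lyz2 -0.64, Maf -0.066, Mertk -0.38, Mmp12 -0.55, Pcna -0.56, Sdha -0.49, Ticam1 -0.42 and Tnip2 -0.65. Most of these were not called under TMM. By totals 12 other named genes gained a call and 5 lost theirs without a change of sign. With upper-quartile scaling 11 gained and 3 lost a call in that way. Upper-quartile scaling turned the medians of MAP kinase phosphatases -0.096, inflammasome -0.078, NRF2 and iron -0.17, chaperones -0.033 and chromatin -0.051, of macrophage transcription factors -0.27, complement -0.18, tricarboxylic acid cycle -0.23 and macrophage markers -0.23, and the genes Bub3 -0.079, Ccl6 -0.31, Ctsb -0.30, Gpnmb -0.30, Sdha -0.084, Ticam1 -0.016 and Tnip2 -0.24. Keeping genes with at least 50% of their exon bases to themselves put the inflammasome median at -0.12. The near-zero median of macrophage transcription factors (0.036) was -0.0011 without untreated replicate 1 and -0.052 without LPS replicate 1, and that of prostaglandin and leukotriene enzymes (-0.045) was 0.058 with a minimum count of 50. No other alternative turned a list median, or a named gene called under it or under TMM. In simulated counts of this size the test called 79 of 100 genes changed 2-fold and 66 of 100 changed 1.5-fold, with 10 of 9376 unchanged genes called. Small changes can thus be missed at this depth. In the real data 6988 genes were called and 83 rose at least 100-fold, so these rates need not carry over. The simulation held no such imbalance and says nothing on the choice of scaling.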
